A study of Mus musculus with 2 samples.

Results

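The genes described here are 9 members of the Rgs family, the regulators of G protein signalling: Rgs1, Rgs2, Rgs3, Rgs10, Rgs12, Rgs14, Rgs16, Rgs18 and Rgs19. They were chosen by symbol, each symbol matched a single entry, and they are 9 of 55536 gene entries and 9 of 22 Rgs genes in the annotation. Polyadenylated RNA was sequenced from C57BL/6J mouse macrophages, phagocytes grown in culture from bone marrow. The cells of both libraries had received Lipid A, the part of bacterial lipopolysaccharide that Tlr4 recognises, at 100 ng/mL for 12 h, had been kept without it for 12 h, and had received it again at 100 ng/mL for 30 min. The agent is Lipid A in the samples' free text but lipoprotein A in their treatment field, and age and sex were not recorded. There was 1 group of 2 biological replicates with no untreated or singly treated library analysed here, so the values describe the restimulated state and not induction. The labels list the replicates as separate biosamples under a shared donor record, without saying whether they came from separate animals, so the spread between them may be technical.

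RGS proteins bind the active, GTP-bound form of G protein alpha subunits and speed the hydrolysis of GTP, which ends the signal of a G protein-coupled receptor. Most act on alpha subunits of the Gi and Gq classes. In leukocytes they are known for limiting the response to chemoattractants. The R4 subfamily (here Rgs1, Rgs2, Rgs3, Rgs16 and Rgs18) consists mainly of small proteins built around the RGS domain. The R12 subfamily (Rgs10, Rgs12 and Rgs14) includes larger scaffolds, and the RZ subfamily (here Rgs19) carries a cysteine-rich stretch.

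The main result on Rgs1 turns on which of its annotated transcripts took the reads. In GENCODE M21 (mm10) Rgs1-208 is annotated as protein-coding, and exon 2 of Rgs1-204 is 49 bases longer at its 5′ end than that of Rgs1-208. The annotated coding part of Rgs1-204 ends at the first base of that exon and spans 138 bases, against 627 in Rgs1-208. Rgs1-204 is annotated as a target of nonsense-mediated decay, the pathway that degrades messages with premature stops.

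Promoters are printed for Rgs2, which among members with enough counts in the RefSeq promoter table (GRCm38.p6) had the highest ratio of replicate 2 to replicate 1, and for Rgs10, which had the lowest. The table held Rgs2, Rgs3, Rgs10, Rgs12, Rgs16 and Rgs19. Each sequence runs 5′ to 3′ on the minus strand from 250 bases before the gene start to 50 bases after it. Capitals mark a GC box (GGGCGG), a core of the cAMP response element (TGACG) or their reverse complements.
Rgs2 chr1:144004100-144004399: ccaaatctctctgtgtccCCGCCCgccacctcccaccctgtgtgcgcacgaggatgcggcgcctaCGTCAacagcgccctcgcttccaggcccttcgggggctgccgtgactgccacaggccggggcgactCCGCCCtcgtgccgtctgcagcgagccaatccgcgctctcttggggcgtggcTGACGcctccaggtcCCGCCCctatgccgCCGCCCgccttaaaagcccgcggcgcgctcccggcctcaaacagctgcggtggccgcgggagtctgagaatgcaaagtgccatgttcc
Rgs10 chr7:128418123-128418422: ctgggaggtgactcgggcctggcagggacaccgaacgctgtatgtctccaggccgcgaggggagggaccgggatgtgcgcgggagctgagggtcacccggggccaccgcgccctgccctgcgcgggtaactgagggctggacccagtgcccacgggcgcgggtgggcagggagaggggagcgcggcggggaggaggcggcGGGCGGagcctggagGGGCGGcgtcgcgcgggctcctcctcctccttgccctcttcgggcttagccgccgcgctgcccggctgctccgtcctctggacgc
Rgs2 held the core TGACG on either strand, with matches that began 185 and 67 bases before its start, and Rgs10 held none. That core was present in 20.9% of 32544 promoters of this length. GC boxes were present in 8 of the 10 windows listed for members and in 35.9% of all promoters. Those 8 windows had 55.3% to 76% G and C, beside a median of 53% over all promoters. The Rgs19 windows that begin at 181693761 and 181693928 overlap and share a GC box. The part of base composition in this count was not tested. The full element TGACGTCA, found in 1.80% of promoters, and the CArG box, found in 1.64%, were in none of the 10 windows. The AP-1 word TGANTCA (7.79% of promoters) and the NF-kB consensus (8.49%) matched only in the window of Rgs12 at chr5:34998828-34999127, which also held TGACG. The TATA box TATAAA (13.6%) matched in 2 windows, both of Rgs3. All words were searched on both strands, TGACGTCA contains TGACG, and a match describes letters and not a bound factor.

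Rgs1 was the most abundant member, 7 others were expressed at lower levels, and Rgs16 was close to absent. Levels are in TPM, the authors' measure per transcript length, and a gene was called detected at 1 TPM or more in both libraries. By this rule 8 of 9 members were detected, where 48.7% of 22028 protein-coding genes were. The median TPM of the 9 members was 23.6 in replicate 1 and 20.4 in replicate 2, beside 17.5 and 16.4 TPM over the 10727 detected protein-coding genes. The members were proposed with levels of these libraries known, so their detection is a description.

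Rgs1 (ENSMUSG00000026358.13, chromosome 1, 144242296 to 144249242, minus strand) dampens chemokine receptor signals in lymphocytes and myeloid cells. It stood at 189 TPM in replicate 1 and 554 TPM in replicate 2, on 3773 and 9181 counts. Its mean was 372 ± 258 TPM (SD, n = 2), and both libraries lay above every other member. Replicate 2 was the higher by far, so the level of Rgs1 is the least certain of the set. Rgs2 (chromosome 1, 143999338 to 144004161), which acts mainly on Gq, had 34.1 and 53.6 TPM on 2233 and 2715 counts, a mean of 43.8 ± 13.8 TPM. It too was higher in replicate 2, and it did not overlap with its neighbours in the order of levels.

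The remaining R4 members were lower. Rgs3 (chromosome 4, 62559847 to 62704001), a gene with many transcripts that also encodes forms with a PDZ domain, had 23.6 and 20.4 TPM on 752 and 569 counts. Rgs18 (chromosome 1, 144752683 to 144775435), best known from platelets and other blood cells, had 16.8 and 15.2 TPM on 829 and 567 counts. Both were slightly lower in replicate 2 on this scale. Rgs16 (chromosome 1, 153740349 to 153745468), an inducible regulator in many cells, had 7 and 15 counts and 0.12 and 0.34 TPM, under the threshold in both libraries.

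Of the R12 members Rgs10 was highest. Rgs10 (chromosome 7, 128373621 to 128418758), a small protein known for restraining inflammatory activation in microglia and macrophages, had 119 and 108 TPM, a mean of 114 ± 7.92 TPM (SD, n = 2). Rgs14 (chromosome 13, 55369732 to 55384687), a scaffold that also binds Ras-family GTPases and inactive Gi alpha, had 12.6 and 19.3 TPM. It was higher in replicate 2 and its range enclosed that of Rgs18. Rgs12 (chromosome 5, 34949445 to 35039644), the large multidomain member, was just above the threshold at 1.23 and 1.17 TPM, on 152 and 120 counts. The RZ member Rgs19 (chromosome 2, 181688419 to 181693977), also called GAIP, had 87.3 and 76.9 TPM, a mean of 82.1 ± 7.37 TPM.

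By mean TPM the order was Rgs1, Rgs10, Rgs19, Rgs2, Rgs3, Rgs18, Rgs14, Rgs12 and Rgs16. Neighbours in this order had ranges that did not overlap between the libraries, except Rgs18 and Rgs14, whose means of 16.025 and 15.95 TPM differed by less than their spread. With 2 libraries a range without overlap is a weak statement. The FASTQ-derived tables gave the same order in each library as the alignment-derived tables, and no detected member differed 2-fold in mean TPM between them, where 0.633% of protein-coding genes did. Raw counts, which are not corrected for length, placed Rgs19 and Rgs2 ahead of Rgs10 in both libraries. The place of Rgs1 above Rgs10 in replicate 1 rested on short transcripts. Without transcripts under 500 bases, an alternative chosen after the data were seen, Rgs1 stood at 98.5 TPM and Rgs10 at 117 TPM in replicate 1, against 296 and 107 TPM in replicate 2. The mean of Rgs1 was then 197 ± 139 TPM, lower than its full value by 1.88-fold, and that of Rgs3 14.6 ± 0.247 TPM, lower by 1.51-fold.

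**Figure D1:**
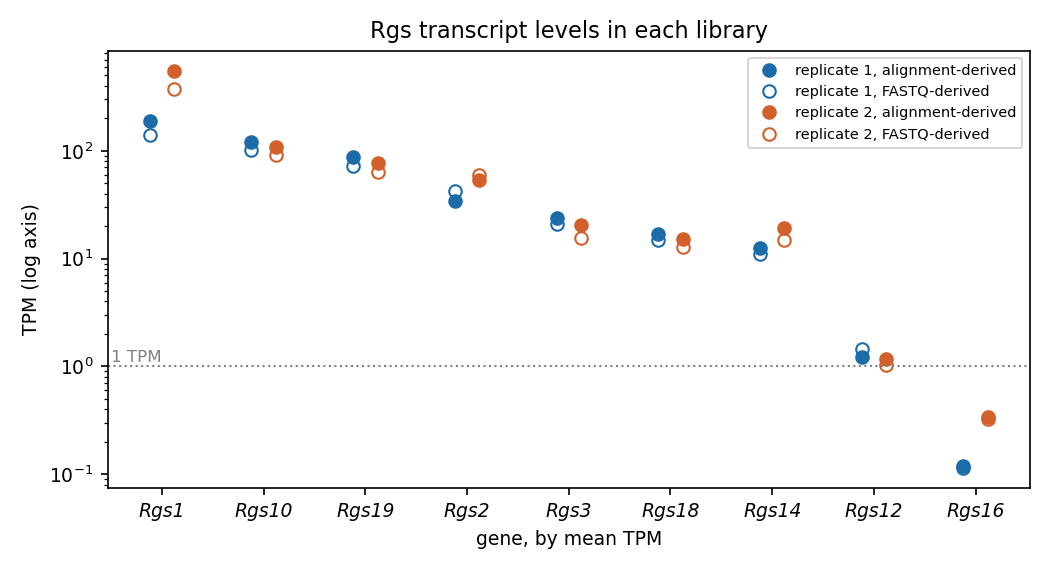
TPM on a log axis for each of the 9 Rgs genes, ordered by mean, with replicate 1 in blue and replicate 2 in orange, filled for the alignment-derived and open for the FASTQ-derived table. Rgs1 spans 189 to 554 TPM between the libraries, whereas Rgs16 lies under the dotted line at 1 TPM in both.

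The genes closest to Rgs1 in level, by distance on log2 TPM over the 2 libraries among 10727 detected protein-coding genes, were Ifit1bl1 (distance 0.14, 198 and 508 TPM), Ly6a (0.23, 222 and 541 TPM) and Nfkbia (0.33, 237 and 566 TPM). Over 2 libraries this likeness covers a level and a single ratio only.

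Between the libraries Rgs1 stood apart from the other members. Ratios are of replicate 2 over replicate 1 on counts scaled with TMM, a method that matches the bulk of genes, with 0.5 added. With 1 library on each side there was no test, and the exact 95% intervals given hold counting error alone. Rgs1 was 3.33-fold higher in replicate 2, a log2 ratio of 1.74 (1.68 to 1.79). It was the only member at least 2-fold higher among the 8 with 20 or more counts in both libraries, and 1.94% of 12471 such genes, or 1.59% of the protein-coding ones, were. The number of genes with a higher ratio than Rgs1 was 53. No member was at least 2-fold lower, where 0.521% of genes, or 0.426% of the protein-coding ones, were.

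Rgs2 had a log2 ratio of 0.74 (0.65 to 0.82) and Rgs14 of 0.58 (0.43 to 0.73), both higher in replicate 2 beyond counting error and under 2-fold. Rgs10 was the lowest at -0.11 (-0.21 to -0.01). Intervals of Rgs3 at 0.05 (-0.11 to 0.21), Rgs12 at 0.11 (-0.24 to 0.47), Rgs18 at -0.09 (-0.25 to 0.06) and Rgs19 at -0.08 (-0.17 to 0.01) included 0. In all, 5 of the 8 counted members were higher in replicate 2, where 46.4% of genes were, though Rgs3 and Rgs12 changed sign in the FASTQ-derived table, at -0.0040 and -0.013. The members' median was 0.08 against -0.02 over all counted genes. Rgs16, with 7 and 15 counts, had a log2 ratio of 1.48 with an interval of 0.17 to 3.09, and at that depth its size could not be told.

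**Figure D2:**
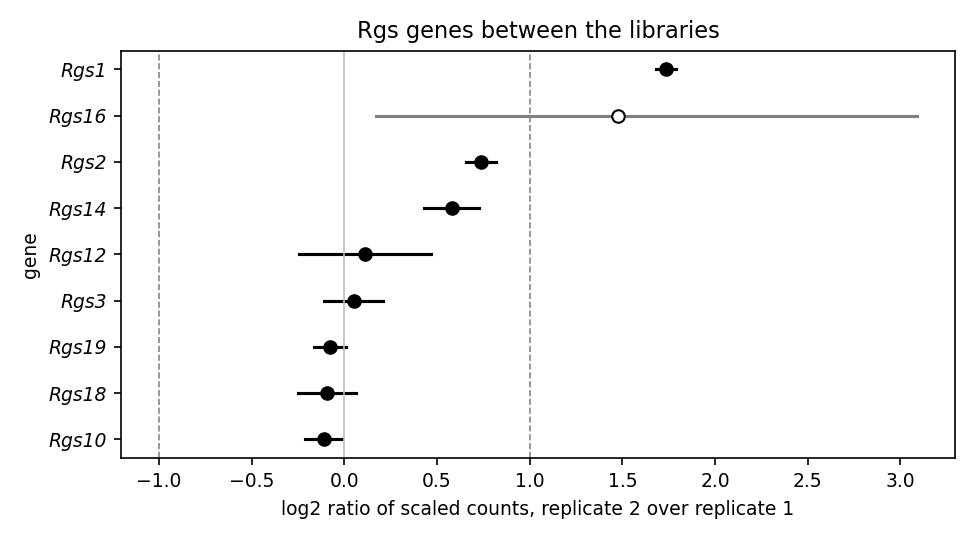
Log2 ratio of scaled counts, replicate 2 over replicate 1, for each Rgs gene, with bars for the exact 95% interval of counting error and dashed lines at 2-fold. The point for Rgs1 lies at 1.74, past the dashed line, and Rgs16 is drawn open because it had 7 and 15 counts.

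Other values moved between the libraries beside Rgs1. Total counts were 41938419 and 30780681. Each of the 8 macrophage markers was above 1 TPM in both libraries, at a median of 683 TPM in replicate 1 and 582 TPM in replicate 2. Of these 6 were lower in replicate 2 and 2 higher, Lyz2 and Cd14, and only Cd14, part of the receptor complex for lipopolysaccharide, passed 2-fold, at 202 and 428 TPM. Neutrophil markers, with 2 of 9 detected, summed to 75.3 and 9.88 TPM. The detected ones were S100a9, at 40.05 and 5.28 TPM and past 2-fold, and S100a8, at 22.25 and 3.66 TPM. Among the other neutrophil markers Ngp had 272 and 8 counts and Ly6g 0 in both libraries. Megakaryocyte and platelet markers, with 2 of 7 detected, summed to 263 and 117 TPM, nearly all of it Pf4, a chemokine gene, at 259 and 115 TPM, while Ppbp had 54 and 17 counts, Itga2b 47 and 17, and Gp9 2 and 0. B cell markers, with 1 of 6 detected, summed to 7.92 and 4.01 TPM. Nearly all of it was Cd79b, at 7.78 and 3.96 TPM on 216 and 80 counts. Vpreb3, a gene of developing B cells, had 0 counts in both libraries. T cell markers had 1 of 6 detected, Cd4, and NK cell, mast cell and erythroid markers none. Dendritic cell markers had 1 of 6 detected, Ccr7. Markers of pericytes and smooth muscle, with 3 of 5 detected, summed to 52.2 and 62.0 TPM. Those of stroma, with 6 of 6 detected, summed to 569 and 646 TPM, led by Col1a1 at 214 and 243 TPM. All 5 and all 6 listed genes had 20 or more counts in both libraries and were higher in replicate 2, where 46.4% of genes were. The part of these differences in the Rgs values was not tested. In bulk RNA, fewer cells of a type and less RNA per cell cannot be told apart.

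Most of the Rgs1 signal in TPM was assigned to transcripts that are not annotated as coding. In the FASTQ-derived table Rgs1-204, the form with the longer exon 2, took 55.3% of the TPM of Rgs1 in replicate 1 and 54.8% in replicate 2. Rgs1-203, a retained-intron transcript of 414 bases, took 37.1% and 34.3%. By estimated counts, which are not corrected for length, Rgs1-203 held 8.55% and 6.67%, and Rgs1-204 69.8% and 61.6%. The coding transcripts Rgs1-207 and Rgs1-208 together took 1.42% and 1.08% of the TPM, and 7.35% and 8.67% in the alignment-derived table. By counts they held 5.87% and 4.04%, and 11.3% and 10.4% in the alignment-derived table. A coding share of TPM under 20% in both libraries was met among members by Rgs1 alone. This limit was chosen after the value of Rgs1 was seen. For comparison, 6668 protein-coding genes reached 10 TPM in both libraries by alignment-derived gene TPM. The limit was met by 1.11% of them with FASTQ-derived shares and by 0.81% with alignment-derived shares. A share under 50% was met by Rgs1 and Rgs3, and by 4.57% and 4.35% of those genes. The TPM shares of Rgs1-204 and Rgs1-203 were close between the libraries in either table. Their count shares were lower in replicate 2 in both tables, at 72.6% and 64.7% for Rgs1-204 in the alignment-derived table.

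Rgs1-204 and Rgs1-208 have 5 exons each, and exons 3 and 4 are identical. Rgs1-208 starts 185 bases further upstream and ends 2377 bases further downstream, at 144242296 instead of 144244673. The RefSeq model of Rgs1 ends at 144244669, within 4 bases of the end of Rgs1-204. Neither of the 2 coding transcripts of Rgs1 in GENCODE M21 ends within 100 bases of that point. The tables hold no reads across the start of exon 2, so how often the 49-base extension was used was not tested. The share given to Rgs1-204 therefore need not measure use of its exon 2, and the part of its annotated end in that share was not tested.

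**Figure D3:**
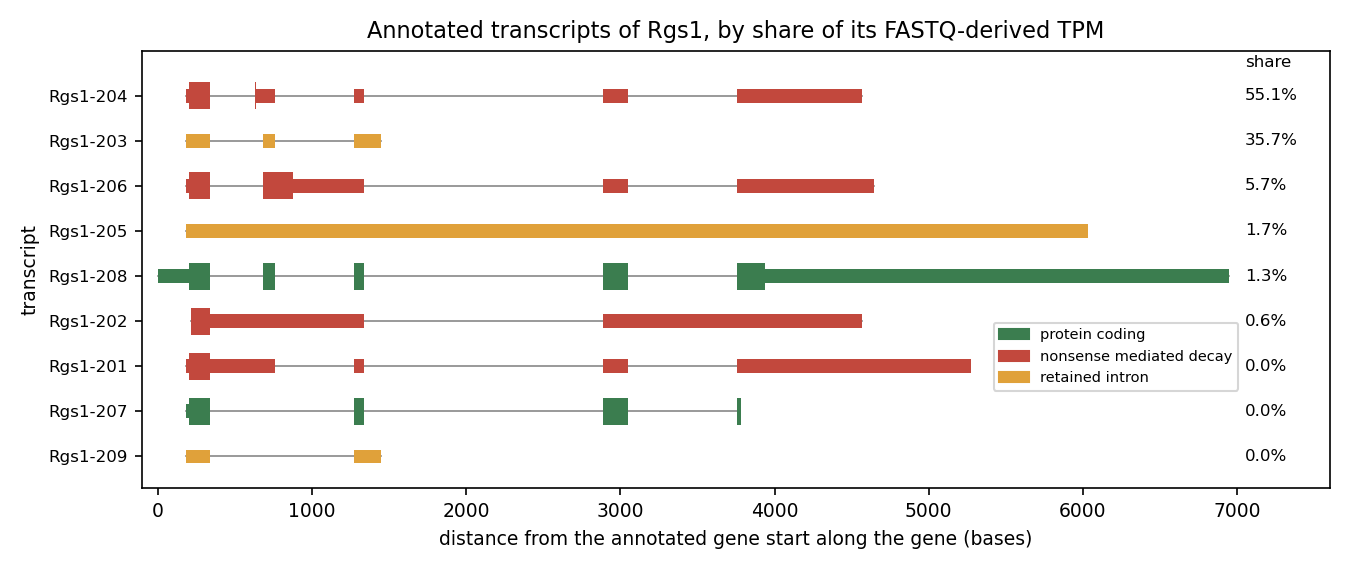
The 9 annotated Rgs1 transcripts drawn to scale against distance in bases from the gene start, with exons as boxes, coding parts taller, and the mean share of the FASTQ-derived TPM at the right. Rgs1-204 carries 55.1% and has the same layout as Rgs1-208 apart from a longer exon 2 and shorter ends.

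Within Rgs1, some transcripts that keep intron sequence had higher ratios between the libraries than the spliced forms. Rgs1-205, a transcript of a single exon that spans 5843 bases and includes all introns of the gene between its ends, had 221 and 1420 estimated counts in the FASTQ-derived table. Its share of Rgs1 counts was 5.41% in replicate 1 and 14.7% in replicate 2. The log2 ratio of Rgs1-205 was 3.11, against 1.49 for Rgs1-204 and 1.13 for Rgs1-208. In the alignment-derived table these values were 3.26, 1.57 and 1.60, so Rgs1-205 was above both in either table. Rgs1-202, a transcript of 2 exons that also keeps intron sequence, had 33.1 and 218 estimated counts and a log2 ratio of 3.13, against 2.05 in the alignment-derived table. Rgs1-206, which keeps the intron between exons 2 and 3, had 388 and 1039 estimated counts and a ratio of 1.85, and 17.6 and 94.6 counts in the alignment-derived table, too few in replicate 1 for a ratio by the 20-count rule. Rgs1-203, which is annotated as retained-intron too, did not share this, at 1.31 and 1.37. At least 2-fold higher ratios were found for 12.9% of 2388 retained-intron transcripts in the FASTQ-derived table and 13.1% of 1915 in the alignment-derived table, against 5.17% and 5.12% of all transcripts. Retained-intron transcripts with a ratio above that of Rgs1-205 numbered 2 (0.0838%) and 1 (0.0522%). Counts of overlapping transcripts are estimates that share reads, so no interval is given.

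Transcript use in Rgs10, Rgs12, Rgs14, Rgs16, Rgs18 and Rgs19 was mostly coding. Rgs10-201 carried 97.9% and 94.96% of the FASTQ-derived TPM of Rgs10, Rgs14-201 carried 99.1% and 99.8% of that of Rgs14, and Rgs16 and Rgs18 have only 1 annotated transcript each. In the alignment-derived table Rgs14-201 took 95.3% and 82.9%, and Rgs14-202, a retained-intron transcript with no FASTQ-derived TPM, took 4.46% and 12.1%. Rgs19-201 took 55.8% and 58.0% of Rgs19, and nearly all the rest lay in other coding transcripts, among them Rgs19-206 and Rgs19-212, which received identical values and cannot be told apart. Rgs12-201, a coding transcript with 4143 coding bases, took 43.2% and 82.6% of Rgs12 on 109 and 118 estimated counts. In the alignment-derived table its shares were 69.4% and 82.1%, closer between the libraries.

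Rgs2 differed between the quantifications. Rgs2-202, the leading coding transcript, took 59.0% and 61.4% of the TPM of Rgs2 in the FASTQ-derived table and 82.7% and 84.6% in the alignment-derived table. Rgs2-201, annotated as a target of nonsense-mediated decay and 763 bases long, took 31.3% and 31.2% in the former and 5.87% and 6.68% in the latter. The split of Rgs2 thus differed far more between the tables than between the libraries. By counts Rgs2-202 held 89.0% and 90.1% in the FASTQ-derived table.

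Rgs3 was divided between a retained-intron and a coding transcript, and the division differed between the libraries. Rgs3-207, a retained-intron transcript, held 49.8% of the estimated counts of Rgs3 in replicate 1 and 36.9% in replicate 2, on 401 and 220 counts. Rgs3-204, which is coding, held 39.2% and 57.1%, on 315 and 340 counts. Their log2 ratios were -0.44 and 0.54 in the FASTQ-derived table and -0.31 and 0.54 in the alignment-derived table. In these estimates the gene's ratio near 0 combined a lower and a higher transcript. Both overlap and end at 62703018, so their counts are estimates that share reads. By FASTQ-derived TPM Rgs3-207 took 38.9% and 36.2%, and Rgs3-204 18.1% and 33.0%. Rgs3-208, also coding, took 18.9% and 15.5% of the TPM and Rgs3-211, a processed transcript, 19.9% and 10.7%, on 36.1 and 16.5 and on 28.2 and 8.37 counts. The longest transcript, Rgs3-201, had 0 counts in both libraries.

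**Figure D4:**
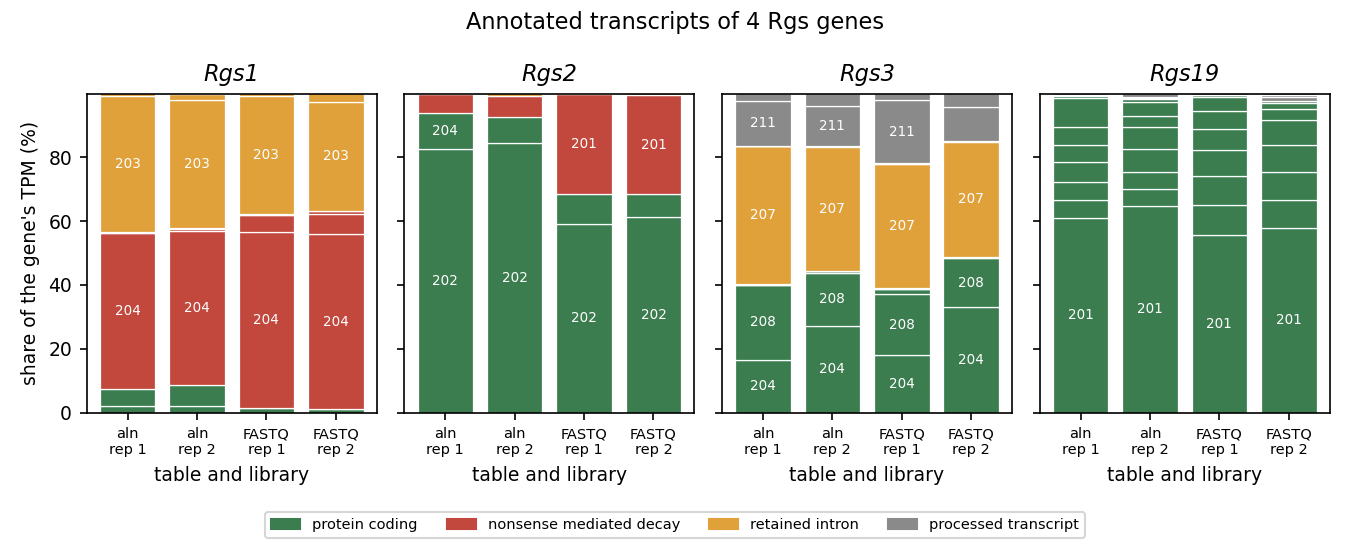
Share of each gene's TPM (percent) by annotated transcript for Rgs1, Rgs2, Rgs3 and Rgs19, with bars for the alignment-derived (aln) and FASTQ-derived table of each replicate, coloured by annotated class and numbered where a transcript exceeds 11%. Rgs1 is mostly Rgs1-204 and Rgs1-203 in all bars, whereas Rgs2-201 is 31.3% of Rgs2 in the FASTQ-derived bar of replicate 1 and 5.87% in the alignment-derived bar.

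Sequence after the coding part also differed among the members. The pentamer ATTTA, the core of AU-rich elements that mark short-lived messages, was counted in the leading coding transcript of each gene by FASTQ-derived TPM. For Rgs1 the alignment-derived table put Rgs1-207, at 10.1 and 36.8 TPM, above Rgs1-208, at 3.83 and 11.2 TPM. Rgs1-208 held 10 in 3006 bases, Rgs18-201 held 5 in 1129 bases and Rgs2-202 held 5 in 2342 bases, whereas Rgs10-201 and Rgs14-201 held none. Per kilobase this was 3.33 for Rgs1, 4.43 for Rgs18, 2.59 for Rgs3, 2.48 for Rgs16 and 2.13 for Rgs2. It was 1.46 for Rgs19 and 0.874 for Rgs12, beside a median of 1.21 over 10430 detected protein-coding genes. The nonamer TTATTTATT, present in 6.73% of those genes, was found in Rgs1, Rgs3 and Rgs16. The sequence searched had a median of 887.5 bases over those genes, against 3006 in Rgs1, 1613 in Rgs16 and 773 in Rgs3. The part of length in these matches was not tested. The sites are printed with flanking bases in lower case and the nonamer in capitals, from the GENCODE M21 transcripts.
Rgs1-208: taaatgtttaTTATTTATTacttgaagatt
Rgs3-204: ccattgagttTTATTTATTtaaatagtagt
Rgs16-201, first site: gctgctattgTTATTTATTgtggtttgttt
Rgs16-201, second site: gtgttaatatTTATTTATTgttaacaaagg
The site of Rgs1 begins 2102 bases after the stop codon. It lies in the 2377 bases beyond the end of Rgs1-204, which also hold 7 of the 10 ATTTA words. The 629 bases up to that end hold 3. A match describes letters, and message stability was not measured.

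The other Rgs genes were nearly silent. Of 13 that are not members, 5 had 0 counts in both libraries (Rgs7, Rgs8, Rgs13, Rgs20 and Rgs21), which allows up to 0.0715 and 0.0975 CPM (counts scaled to library size), and 7 had counts but were not detected, with at most 0.45 TPM and 24 counts in a library. Only Rgsl1, an Rgs-like gene, was detected, at 1.66 and 1.06 TPM. Summed over 22 Rgs genes the family came to 486 and 851 TPM. The R4 subfamily made up 54.2% and 75.6% of it, R12 27.4% and 15.1%, and RZ 18.0% and 9.06%. The summed R12 level was 133 and 129 TPM and the R4 level 264 and 644 TPM, of which Rgs1 made up 189 and 554 TPM.

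Members that lie near each other on chromosome 1 had unlike levels. Between 143999338 and 144775435 on chromosome 1 the only protein-coding genes are Rgs2, Rgs13, Rgs1, Rgs21 and Rgs18, in that order. Rgs2, Rgs1 and Rgs18 were detected, and Rgs13 and Rgs21, which lie between them, had 0 counts. Within the cluster the log2 ratios were 0.74 for Rgs2, 1.74 for Rgs1 and -0.09 for Rgs18. Rgs16 lies next to Rgs8, which had 0 counts. Annotated genes overlap Rgs3, Rgs10, Rgs12 and Rgs16. These overlapping genes had at most 7 counts in a library, and whether the counting used strand is not stated in the labels or headers.

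Among the alpha subunits, the Gi class and Gnas were the most abundant. Gnai2, the main Gi alpha subunit of leukocytes, stood at 702 and 514 TPM and Gnas, the Gs alpha subunit, which most RGS proteins do not act on, at 436 and 490 TPM. Gna13, Gna12, Gnai3 and Gnaq followed, at means of 89.0 ± 0.0990, 51.1 ± 8.45, 50.2 ± 2.08 and 30.3 ± 2.17 TPM (SD, n = 2), and Gna15 and Gna11 at 7.65 ± 0.0778 and 6.71 ± 0.0141 TPM. The summed level of the Gi class was 751 and 566 TPM and that of the Gq class 46.3 and 43.2 TPM. The detected members numbered 2 of 8 for the Gi class, 3 of 4 for the Gq class, 2 of 2 for the class of Gna12 and Gna13, and 1 of 2 for the Gs class. No alpha subunit differed 2-fold between the libraries. Gnai2 had a log2 ratio of -0.40 (-0.43 to -0.38) and Gnas of 0.21 (0.18 to 0.24), so Gnai2 and Rgs1 differed between the libraries in opposite directions.

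Other parts of the pathway were present, and 48.7% of all protein-coding genes were detected. Detected genes numbered 4 of 5 beta subunits, led by Gnb1 at 325 ± 28.4 TPM, and 7 of 12 gamma subunits, led by Gngt2 at 397 ± 75.4 TPM. Of the 7 gamma subunits with 20 or more counts in both libraries, 5 were higher in replicate 2, all beyond counting error, and 2 lower. None passed 2-fold, and the highest log2 ratios were 0.86 (0.69 to 1.03) for Gng10 and 0.82 (0.57 to 1.07) for Gng11. Receptor kinases and arrestins had 6 of 8 detected, led by Arrb2 at 359 ± 46.2 TPM, and effectors 10 of 17, led by Prex1, an activator of Rac, at 107 and 87.3 TPM. Only Adcy2, an adenylyl cyclase, passed 2-fold among the effectors, with 27 and 40 counts and under 1 TPM. All 5 other regulators of alpha subunits were detected, led by Gpsm3, an inhibitor of Gi alpha, at 167 ± 16.1 TPM. Other genes with an RGS-like domain had 8 of 9 detected, led by Arhgef1 at 37.9 ± 2.57 TPM, and all 8 were lower in replicate 2, at a median of -0.20 on the log2 scale, beside -0.02 over all counted genes, of which 46.4% were higher. Gnb5, the partner of the R7 subfamily, stood at 2.21 ± 0.205 TPM while no R7 gene was detected.

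Receptors that signal through Gi had 16 of 17 detected, where 48.7% of protein-coding genes were. Their median levels were 15.6 and 13.0 TPM, and the highest was the complement receptor C3ar1 at 559 ± 103 TPM. Of those with 20 or more counts in both libraries 10 were higher and 6 lower in replicate 2, where 46.4% of all such genes were higher. Their median log2 ratio was 0.17, beside -0.02 over all counted genes. Only Hcar2, a receptor for hydroxy-carboxylic acids, passed 2-fold, at 1.57 and 4.34 TPM, where 1.94% of genes were at least 2-fold higher. Receptors of the Gq and Gs classes had 8 of 9 detected, led by Ptafr, the receptor for platelet-activating factor, at 186 ± 27.8 TPM.

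**Figure D5:**
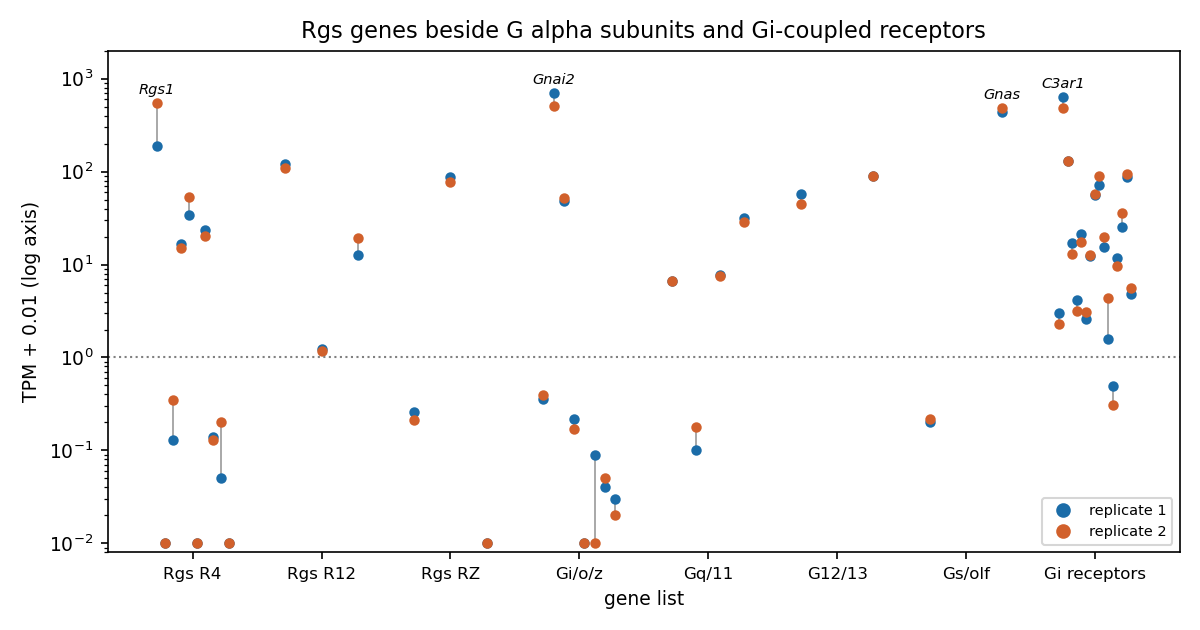
TPM plus 0.01 on a log axis for genes of 3 Rgs subfamilies, the 4 classes of G alpha subunits and Gi-coupled receptors, with replicate 1 in blue, replicate 2 in orange and a line joining the libraries of a gene. Rgs1, Gnai2, Gnas and C3ar1 are the highest, and the line of Rgs1 runs from 189 to 554 TPM, while Rgs10 and Rgs19 differ little between the libraries.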

How the data were processed

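Polyadenylated RNA was measured in 2 libraries of 1 group, with replicate numbers from the labels. Per the file headers and deposited notes, the authors deposited 3 tables per library, made on mm10 with GENCODE M21: alignment-derived gene and transcript tables (expected counts, TPM and, per gene, FPKM) and a FASTQ-derived transcript table (estimated counts and TPM). Quantification tools: not given in the sources used here. Totals of 41938419 and 30780681 counts set the depth. A count of 0 allows up to 3 counts, and reads are not independent molecules.

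Expected counts were rounded. Spike-in entries (0.0526% and 0.0667% of counts) and entries with numeric names (0%) stayed out. TMM factors came from edgeR 4.0.16, with DESeq2 1.42.0 size factors, upper-quartile factors and total counts as alternatives (R 4.3.3). The fold rule needed 20 counts in both libraries. Promoters came from RefSeq (GRCm38.p6), transcripts and coordinates from GENCODE M21. Intervals used scipy 1.17.1, tables pandas 2.3.3 and numpy 2.4.6, and plots matplotlib 3.10.9, in Python 3.11.15. The ratio and its interval were tested on simulated data. All members were named, with the leading gene of each other list, every detected alpha subunit, genes past 2-fold and transcripts at 10% or more. Outside that rule, Rgs3-201, Rgs14-202, Rgs1-202, Rgs1-205, Rgs1-206, Rgs1-207, Rgs1-208, Gng10, Gng11 and single marker genes were picked with values in view. Some genes and sequences that the rule names are not reported here. The members and lists were chosen with earlier results of these data known. AU-rich words were counted in the leading coding transcript, because some leading transcripts have no coding part. Protein sequences were not used here.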

Additional observations from a re-analysis of the deposited data

How the results depend on the processing

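Between the libraries, all 9 log2 ratios were within their counting intervals under DESeq2 size factors, total counts, upper-quartile factors and 5 added in place of 0.5. With the FASTQ-derived table Rgs1 came to 1.67 and Rgs2 to 0.65, both just outside their intervals and in the same direction. The number of members at least 2-fold higher was 1 under each scaling and 2 without a count filter, Rgs16 being the addition. All genes at least 2-fold higher and lower numbered 242 and 65, 104 and 32 when 100 counts were required, and 2993 and 2581 with no filter.

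Mean levels from the FASTQ-derived table moved by more than the spread for Rgs3 (18.2 TPM), Rgs10 (96.9), Rgs18 (13.8) and Rgs19 (67.6), all downward. Over 10581 protein-coding genes detected in both tables, the median log2 ratio of FASTQ-derived to alignment-derived TPM was -0.18. Rgs1, at 260 against 372 TPM, and Rgs2, at 50.9 against 43.8 TPM, also moved, but by less than their wide spreads. In FPKM, a unit with another total, means were 30.0 for Rgs2, 14.9 for Rgs3, 77.3 for Rgs10, 0.815 for Rgs12, 10.9 for Rgs14, 10.9 for Rgs18 and 55.8 for Rgs19. Without transcripts under 500 bases, added after seeing the data, Rgs3 was at 14.6 TPM. The leading transcript's share in the alignment-derived table was 48.6% for Rgs1-204, 83.7% for Rgs2-202, 41.2% for Rgs3-207, 98.6% for Rgs10-201, 89.1% for Rgs14-201 and 62.7% for Rgs19-201. In the 150 bases of each window nearest the gene, the TATA box TATAAA was in 1 member promoter instead of 2. Other results stayed within 1.5 times or 1 SD, and with 2 replicates leaving out either cannot move a mean past that limit. No paired analysis was possible because there is only 1 group. Depth limits Rgs16 and Rgs12.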
